A study of Mus musculus with 21 samples.

Results

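The genes described here belong to cholesterol synthesis and its control: 7 genes out of the 51467 in the count tables, each found once by its symbol and Ensembl identifier. They are *Hmgcs1*, *Idi1*, *Fdft1*, *Sqle* and *Lss*, which encode enzymes, and *Insig1* and *Srebf2*, which encode regulators. They were chosen as known targets of SREBP2, the transcription factor that *Srebf2* encodes. These genes and the lists set beside them below were chosen with earlier results of these data known. The data come from mouse embryonic stem cells (ESCs) grown in serum, LIF and 2i, a pair of kinase inhibitors that keeps ESCs in the naive state. There were 3 wild-type cultures and 4 *Ddx6* KO cultures, 2 from each of 2 clonal KO lines made with Cas9 from V6.5 ESCs, and no sample carried another allele or treatment by its labels. DDX6 is an RNA helicase that acts in decapping and in repression by microRNAs. Every culture was given 500 µM 4-thiouridine (4sU) for 30 min. Part of its RNA was sequenced as labelled, nascent RNA (4sU) and part as total RNA, giving 14 libraries. The labels number the samples without saying whether they were grown separately, so p values measure only the spread between these samples. Such p values do not measure the spread between independently made KO lines, of which there were 2.

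Cells make cholesterol from acetyl-CoA through the mevalonate pathway. SREBP2 is held in the endoplasmic reticulum by SCAP and INSIG while sterols are plentiful. When sterols fall, SCAP carries SREBP2 to the Golgi, where the site-1 and site-2 proteases release its active part, which raises transcription of the pathway, of *Insig1* and of *Srebf2* itself. SREBP2 binds sterol regulatory elements close to start sites, usually beside a CCAAT box bound by NF-Y.

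Promoters from RefSeq on GRCm38.p6, 250 bases before to 50 bases after the start site, were found for 5 of the 7 genes and searched on both strands. *Hmgcs1* alone among the 5 held the sterol regulatory element TCACNCCAC, whose match starts at position -137 from the start site and which 1.24% of 32851 promoters hold. Its core TCACCCCA, which overlaps that element, was also found in *Srebf2* at position -162, and 1.56% of promoters hold it. All 5 promoters held CCAAT, as did 37.4% of promoters, and all 5 held GGGCGG, as did 35.7%. The E-box CACGTG was in *Insig1* alone, at position -101, and 7.15% of promoters hold it. A match is a run of letters, not a measured site. The 3 promoters that differ in these elements are printed below with the sterol element or its core and each CCAAT box, read on either strand, in capitals. That of *Hmgcs1* is at chr13:119690101-119690400, that of *Srebf2* at chr15:82147019-82147318 and that of *Insig1* at chr5:28071162-28071461, all on the plus strand.
Hmgcs1: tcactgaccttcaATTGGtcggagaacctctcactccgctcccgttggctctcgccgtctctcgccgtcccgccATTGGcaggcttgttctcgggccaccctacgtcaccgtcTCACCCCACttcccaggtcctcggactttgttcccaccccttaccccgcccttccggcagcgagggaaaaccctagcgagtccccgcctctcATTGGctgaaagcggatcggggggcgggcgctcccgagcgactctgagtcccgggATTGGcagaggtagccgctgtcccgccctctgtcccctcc
Srebf2: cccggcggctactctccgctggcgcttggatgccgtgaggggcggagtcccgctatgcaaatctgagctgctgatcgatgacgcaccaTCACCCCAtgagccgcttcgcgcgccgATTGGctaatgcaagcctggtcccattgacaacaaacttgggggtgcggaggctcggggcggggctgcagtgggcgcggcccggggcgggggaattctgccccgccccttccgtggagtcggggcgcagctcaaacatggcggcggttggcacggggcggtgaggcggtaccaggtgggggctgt
Insig1: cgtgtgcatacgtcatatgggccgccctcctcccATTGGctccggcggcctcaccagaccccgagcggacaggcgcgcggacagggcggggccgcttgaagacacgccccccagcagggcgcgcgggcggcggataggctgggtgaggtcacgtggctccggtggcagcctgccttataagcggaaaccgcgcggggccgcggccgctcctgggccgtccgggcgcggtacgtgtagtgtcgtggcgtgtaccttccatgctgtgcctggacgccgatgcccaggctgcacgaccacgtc

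The study asked whether DDX6 acts on the stability of microRNA targets, so the 3′ UTRs of the principal Gencode M21 transcripts were searched for the seed match GCACTT of the ESC-enriched microRNAs, which 31.5% of 12041 3′ UTRs hold. The 3′ UTRs of the members were 1462 (*Srebf2*) to 2411 (*Lss*) bases long, except *Sqle* with 275, beside a median of 1036 over the 12041. These shares were not adjusted for length. *Lss* held 2 matches and *Fdft1* and *Insig1* held 1 each, while none of the 7 held the longer AGCACTTA, which 3.40% of 3′ UTRs hold. The sites, with the match in capitals, are shown because these are the members in which a microRNA could pair by this seed.
Fdft1: gtgccgactgctGCACTTgtga
Lss, first site: attgtggagtggGCACTTgagc
Lss, second site: tttggccatggtGCACTTtgtg
Insig1: gatcttggtgatGCACTTgatt

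The AU-rich heptamer TATTTAT occurred in *Insig1* alone of the 7, with 2 copies, and 28.8% of 3′ UTRs hold it. On GRCm38, *Hmgcs1* lies on chromosome 13 from 119690379 to 119708260, *Idi1* on chromosome 13 from 8885501 to 8892451, *Sqle* on chromosome 15 from 59315077 to 59331192 and *Srebf2* on chromosome 15 from 82147181 to 82205379. *Lss* lies on chromosome 10 from 76531588 to 76557138 and *Insig1* on chromosome 5 from 28071363 to 28078662, and these 6 genes are on the plus strand. *Fdft1* is on the minus strand of chromosome 14 from 63145150 to 63179578. Median mRNA log2 fold changes of the tested genes on these chromosomes lay between -0.17 and -0.09. Genes of chromosome 6, which holds none of the 7, had a median of 0.43 over 735 genes.

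Libraries held 2441639 to 3570192 counts for 4sU and 5724179 to 7369651 for total RNA. The targeted gene was checked first: *Ddx6* mRNA was at 335, 385 and 393 CPM in wild type, 57.5 and 68.0 in KO clone 1, and 23.2 and 21.6 in KO clone 2 (log2 fold change -3.12, SE 0.32, adjusted p = 9.2e-06 by edgeR's quasi-likelihood test). Nascent *Ddx6* was at 244, 246 and 272 CPM in wild type, 225 and 232 in clone 1, and 164 and 146 in clone 2. With both clones pooled its log2 fold change was -0.41 (SE 0.32, adjusted p = 0.348 by the same test). The clones differed in it (clone 2 minus clone 1 -0.56, SE 0.09, adjusted p = 9.4e-05 by edgeR). CPM here is a count divided by the library size after correction by edgeR's TMM factor over all 14 libraries. They are relative amounts in bulk cultures, in which fewer cells of a type and less RNA per cell cannot be told apart. Summed ESC markers (7 genes such as *Pou5f1*) were at 4650 to 4760 CPM in wild-type total RNA and 4490 to 4630 in KO, an order that turned without the TMM factors (4308 to 4406 and 4648 to 4812). Of the 7, 3 rose and 2 fell. Of 5 fibroblast markers, *Col1a1* and *Thy1* rose; the sum of the 5 was 3.35 to 5.76 CPM in wild type and 10.7 to 12.7 CPM in KO, and *Postn* was at 0 throughout. Of 5 primitive endoderm markers, only *Gata4* had enough counts to be tested, and it rose. The untested *Sox17* and *Gata6* had lower means in KO total RNA, from 1.95 to 0.572 CPM and from 0.775 to 0.283 CPM. *Sox7* and *Foxa2*, also untested, had slightly higher means in KO, at 0.284 and 0.144 CPM. The sum of the 5 was 5.69 to 8.37 CPM in wild type and 6.55 to 7.72 CPM in KO. The part of these markers in the results was not tested.

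In total RNA, the mRNA of all 7 genes fell in *Ddx6* KO, by 0.58 to 1.12 on the log2 scale, at adjusted p below 0.05 over the 14518 genes tested. By the same test 31.0% of all tested genes fell and 19.5% rose, so a fall by itself was common. The median of the 7 was -0.86, beside -0.10 for all tested genes. With the additional demand of a log2 fold change below -1, which 4.86% of genes met, *Sqle* was the only member called. In 6 of the 7, every KO culture lay below every wild-type culture, which 32.0% of all tested genes did; *Idi1* was the exception.

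*Hmgcs1* encodes the cytosolic synthase that makes HMG-CoA at the start of the pathway, and it had the highest total RNA level per length among the 7 in wild type. Its mRNA was at 472, 505 and 518 CPM in wild type. The KO values were 283 and 261 CPM in clone 1 and 270 and 279 CPM in clone 2. All 4 KO cultures were thus far below the lowest wild-type culture, and the log2 fold change was -0.87 (SE 0.06, adjusted p = 4.6e-17). Nascent *Hmgcs1* was at 233, 228 and 288 CPM in wild type and at 210, 226, 217 and 180 CPM in KO. These groups came close to touching, with a log2 change of -0.27 (SE 0.07, adjusted p = 0.00221). That fall did not pass when wild-type culture 3, the highest, was left out (-0.15, adjusted p = 0.103) or with clone 1 alone (-0.19, adjusted p = 0.0581).

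*Idi1* encodes the isomerase that interconverts the 5-carbon building blocks of the pathway. Its nascent RNA was at 35.0, 24.5 and 30.8 CPM in wild type and at 17.1, 15.4, 15.7 and 18.5 CPM in KO. The groups did not overlap, and the log2 change of -0.84 (SE 0.17, adjusted p = 6.5e-05) was the largest nascent fall of the 7. Total RNA held little of it: counts were 19, 15 and 26 in wild type and 9, 12, 13 and 17 in KO, and scaled values were 3.54, 2.47 and 4.00 CPM against 1.44, 1.58, 1.71 and 2.62 CPM. The lowest wild-type culture fell inside the KO range, and the log2 fold change was -0.86 (SE 0.29, adjusted p = 0.0109). This fall did not pass without wild-type culture 3 (-0.70, adjusted p = 0.0932), with clone 2 alone (-0.62, adjusted p = 0.140) or without the filter on low counts (-0.76, adjusted p = 0.0530). Of the 50-base stretches in annotated *Idi1* transcripts, 17.7% also occur in transcripts of other genes, such as *Gm13502*, *Gm35570* and *Gm7654*. Reads from such stretches would map to several places and not be counted, so the level of *Idi1* is uncertain.

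*Fdft1* encodes squalene synthase, the branch point at which the pathway commits to sterols. Its mRNA was at 126, 122 and 129 CPM in wild type and at 75.9, 76.7, 77.7 and 72.4 CPM in KO. The spread within each group was small beside the gap, and the log2 fold change was -0.73 (SE 0.07, adjusted p = 1.4e-13). Nascent *Fdft1* was at 90.4, 106 and 109 CPM in wild type and at 77.1, 94.1, 74.4 and 79.2 CPM in KO. One culture of clone 1 lay above the lowest wild-type culture, and the log2 fold change was -0.33 (SE 0.08, adjusted p = 0.00101). The nascent fall did not pass with the single-end run alone (-0.18, adjusted p = 0.187). In *Fdft1*, 9.38% of 50-base stretches are shared with *Gm6781*.

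*Sqle* encodes squalene epoxidase, which adds the oxygen to squalene and is a rate-limiting step. Its mRNA had the largest fall of the 7. Of tested genes, 4.62% had a lower mRNA change, beside 7.93% (*Insig1*) to 16.1% (*Lss*) for the other members. Wild-type cultures were at 177, 168 and 176 CPM, clone 1 at 83.8 and 88.4 CPM, and clone 2 at 71.2 and 76.4 CPM. The log2 fold change was -1.12 (SE 0.07, adjusted p = 9.4e-20). Nascent *Sqle* was at 162, 161 and 208 CPM in wild type and at 108, 108, 97.7 and 104 CPM in KO. The groups were well apart here too, with a log2 change of -0.77 (SE 0.08, adjusted p = 1.1e-11).

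*Lss* encodes lanosterol synthase, which closes the sterol rings. Its mRNA was at 84.7, 75.7 and 76.8 CPM in wild type and at 57.4, 52.7, 53.4 and 48.2 CPM in KO, the smallest mRNA fall of the 7 (log2 fold change -0.58, SE 0.08, adjusted p = 8.9e-09). Nascent *Lss* was at 36.8, 36.6 and 43.4 CPM in wild type and at 33.0, 33.7, 32.7 and 37.0 CPM in KO. One KO culture lay within the wild-type range, and the log2 change of -0.19 (SE 0.12, adjusted p = 0.186) did not pass.

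*Insig1* encodes the anchor that keeps SCAP and SREBP2 in the endoplasmic reticulum. Its mRNA was at 145, 146 and 142 CPM in wild type and at 76.4, 80.5, 79.3 and 77.6 CPM in KO. Its spread within groups was the smallest of the 7 relative to the mean, and its log2 fold change was -0.88 (SE 0.06, adjusted p = 3.2e-18). Nascent *Insig1* was at 239, 243 and 249 CPM in wild type and at 166, 152, 152 and 172 CPM in KO, again with a wide gap (log2 fold change -0.60, SE 0.06, adjusted p = 1.4e-11).

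*Srebf2* mRNA was at 263, 294 and 305 CPM in wild type and at 181, 196, 177 and 200 CPM in KO. All KO cultures lay below the wild-type range, with a log2 change of -0.61 (SE 0.06, adjusted p = 2.2e-12). Nascent *Srebf2* was at 126, 135 and 114 CPM in wild type and at 105, 102, 91.4 and 116 CPM in KO. These groups overlapped, and the log2 fold change was -0.27 (SE 0.08, adjusted p = 0.00692). It did not pass without wild-type culture 2 (-0.21, adjusted p = 0.0865) or without the first culture of clone 2 (-0.20, adjusted p = 0.0599), with clone 2 alone (-0.25, adjusted p = 0.0517) or with the re-sequencing run alone (-0.21, adjusted p = 0.148).

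**Figure D1:**
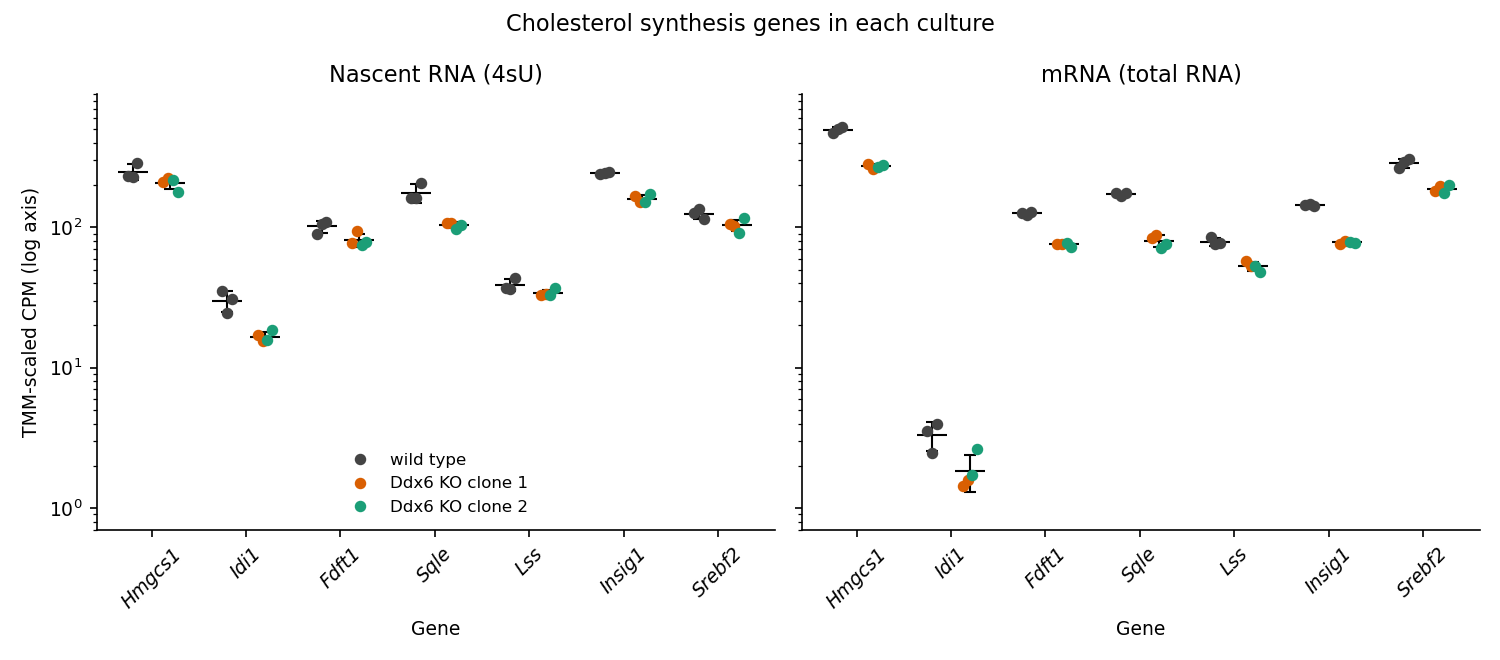
TMM-scaled CPM on a log axis for the 7 genes in nascent RNA (left) and total RNA (right). Points are cultures coloured by wild type or KO clone and bars are the mean ± SD of 3 wild-type or 4 KO cultures. In total RNA every KO point is below every wild-type point except for *Idi1*, whose counts were 9 to 26.

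In nascent RNA, 6 of the 7 genes fell (all but *Lss*), beside 21.0% of tested genes that fell and 20.6% that rose. The median of the 7 was -0.33, beside 0.00 for all tested genes. None of the 7 met the demand of a log2 fold change below -1, which 5.80% of genes met. In 4 (*Hmgcs1*, *Idi1*, *Sqle* and *Insig1*) no KO culture reached the wild-type range, which was so for 21.2% of genes. The scaling mattered for the smaller falls. With scaling by library size alone, the median nascent change of all genes rose to 0.21, *Hmgcs1* stood at -0.06, *Srebf2* at -0.06 and *Fdft1* at -0.13, and *Idi1*, *Sqle* and *Insig1* alone passed.

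mRNA stability was taken as total over 4sU and its change as the interaction of genotype and assay. It fell in 5 of the 7, beside 8.58% of tested genes that fell and 3.79% that rose. The median of the 7 was -0.35, beside -0.09 for all tested genes. None was called with a log2 fold change below -1, which 0.393% of genes met. The 5 genes, *Hmgcs1*, *Fdft1*, *Sqle*, *Insig1* and *Srebf2*, thus fell in nascent RNA, mRNA and stability, which 0.751% of genes did. That share counts adjusted p values, and by size the changes were less rare. Of tested genes, 7.45% (*Hmgcs1*) to 28.5% (*Insig1*) had a lower stability change than these 5. A lower nascent change was found in 9.73% (*Sqle*) to 28.9% (*Srebf2*). The 3 comparisons share libraries and are not independent of each other. The fitted mRNA change is the nascent change plus the stability change. The count of 5 and the 0.751% hold for the main scaling. With TMM factors computed within each assay only *Hmgcs1* fell in all 3. With scaling by library size alone only *Sqle* and *Insig1* did.

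*Hmgcs1* had the largest stability fall and was the only member that passed in every alternative fit, though not the demand of a log2 fold change below -1. Its log2 ratio of total to 4sU was 1.02, 1.15 and 0.85 in wild type and 0.43, 0.21, 0.31 and 0.63 in KO. The groups were separate, and the change was -0.60 (SE 0.10, adjusted p = 9.8e-06). For *Fdft1* the ratio was 0.48, 0.21 and 0.24 in wild type and -0.02, -0.29, 0.06 and -0.13 in KO. The change was -0.40 (SE 0.11, adjusted p = 0.00996).

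*Sqle* had a ratio of 0.13, 0.06 and -0.25 in wild type and -0.36, -0.29, -0.45 and -0.44 in KO, so wild-type culture 3 lay next to the KO cultures (change -0.35, SE 0.11, adjusted p = 0.0224). The *Srebf2* ratio was 1.06, 1.12 and 1.41 in wild type and 0.78, 0.94, 0.95 and 0.78 in KO (change -0.35, SE 0.10, adjusted p = 0.0182). *Insig1* stood at -0.72, -0.73 and -0.81 in wild type and -1.11, -0.91, -0.94 and -1.15 in KO (change -0.28, SE 0.09, adjusted p = 0.0308). In all 3 genes the groups were separate but the gaps were narrow.

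*Lss* had a ratio of 1.19, 1.04 and 0.81 in wild type and 0.79, 0.64, 0.70 and 0.38 in KO. Its change of -0.38 was as large as that of members that passed, but with an SE of 0.14 the adjusted p was 0.0624. *Idi1* differed by -0.02 (SE 0.25, adjusted p = 0.974), with ratios of -3.14, -3.08 and -2.80 in wild type and -3.18, -2.94, -2.87 and -2.60 in KO, which overlapped. In the other 6 genes every KO ratio was below every wild-type ratio, as in 15.5% of tested genes.

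The number of stability calls moved with the scaling and with single cultures, while the changes of the members that had passed kept their direction. That of *Idi1*, which had not passed, ranged from -0.24 to 0.28. Over all alternatives *Hmgcs1* ranged from -0.69 to -0.51, *Fdft1* from -0.54 to -0.25, *Sqle* from -0.48 to -0.26, *Srebf2* from -0.41 to -0.24 and *Insig1* from -0.33 to -0.19. With TMM factors computed within each assay, 1 member (*Hmgcs1*) passed, and the median of all tested genes moved from -0.09 to 0.00. With DESeq2 2 passed (*Hmgcs1* and *Fdft1*), and with library size alone 6 did, *Lss* included (-0.43, adjusted p = 0.0267). Without wild-type culture 1 the count was 2, and it was 3 without wild-type culture 2, without the first culture of clone 1 or without the second culture of clone 2.

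**Figure D2:**
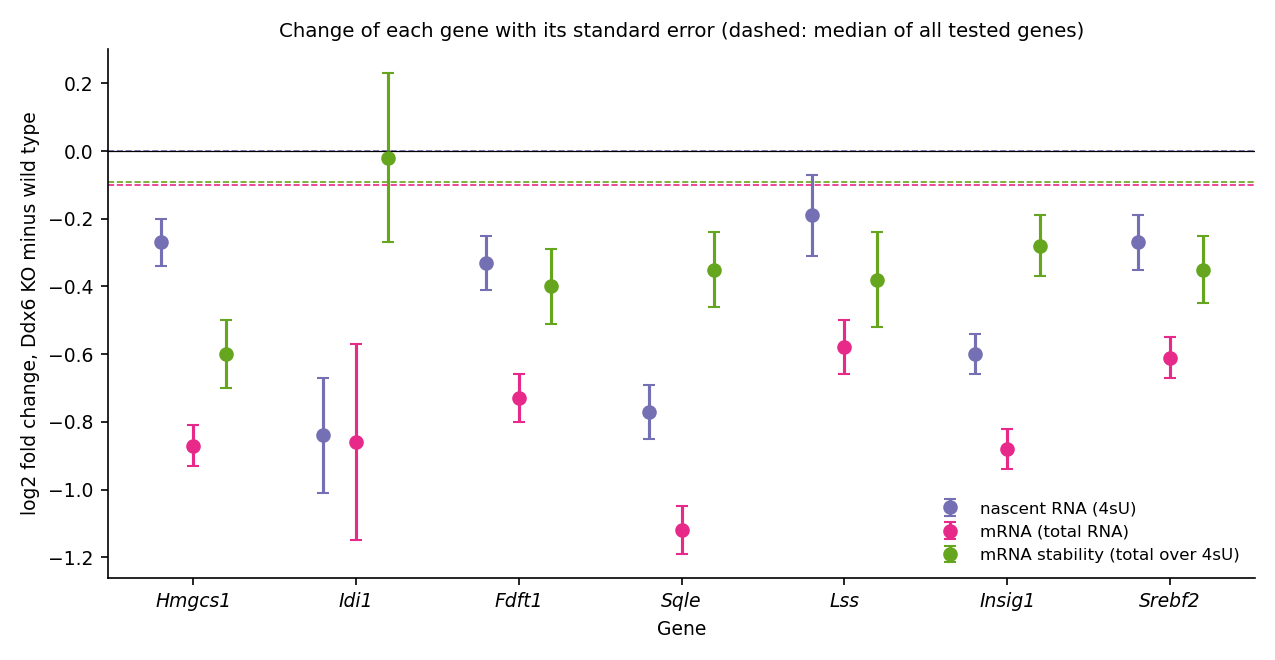
Log2 fold change of *Ddx6* KO minus wild type with its standard error (bars) for each gene in nascent RNA, mRNA and mRNA stability. Dashed lines are medians of all tested genes (0.00, -0.10 and -0.09); mRNA falls by 0.58 to 1.12 in all 7 genes, and stability of *Idi1* is at -0.02.

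The members also differed in level. Per kilobase of exon, wild-type mRNA was highest for *Hmgcs1*, at 154 ± 7.45 RPKM (SD, n = 3). Then came *Sqle* at 62.9 ± 1.68 RPKM, *Srebf2* at 57.6 ± 4.33 RPKM and *Insig1* at 53.5 ± 0.704 RPKM. Among these 3, the cultures of *Srebf2* overlapped those of *Sqle* and of *Insig1*, so neither pair of neighbours differed beyond its spread. *Fdft1* followed at 44.0 ± 1.21 RPKM, *Lss* at 16.9 ± 1.05 RPKM and *Idi1* at 1.10 ± 0.259 RPKM, each apart from its neighbours.

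Nascent RNA had another order. *Insig1* led with 90.4 ± 1.97 RPKM in wild type, and *Hmgcs1* at 77.2 ± 10.3 RPKM and *Sqle* at 64.2 ± 9.84 RPKM followed, each overlapping the gene before it. *Fdft1* at 35.6 ± 3.50 RPKM and *Srebf2* at 25.1 ± 2.06 RPKM stood apart from these. *Idi1* at 9.95 ± 1.74 RPKM and *Lss* at 8.35 ± 0.832 RPKM overlapped at the bottom.

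The wild-type log2 ratio of total to 4sU spanned a wide range within the 7. *Srebf2* had 1.20 ± 0.19 (SD, n = 3), above 83.8% of tested genes, followed by *Lss* at 1.01 ± 0.19 and *Hmgcs1* at 1.00 ± 0.15, and these 3 overlapped. *Fdft1* stood at 0.31 ± 0.15 and *Sqle* at -0.02 ± 0.20, near the median of all tested genes of 0.07. *Insig1* was at -0.75 ± 0.05, above 30.6% of genes, and *Idi1* at -3.00 ± 0.18, above 4.89%. The *Idi1* ratio rests on total RNA counts of 9 to 26 and on a level made uncertain by stretches shared with other genes. The order of the means was the same in KO, with *Srebf2* at 0.86 ± 0.09, *Lss* 0.63 ± 0.18, *Hmgcs1* 0.39 ± 0.18, *Fdft1* -0.10 ± 0.15, *Sqle* -0.39 ± 0.08, *Insig1* -1.03 ± 0.12 and *Idi1* -2.90 ± 0.24 (SD, n = 4).

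**Figure D3:**
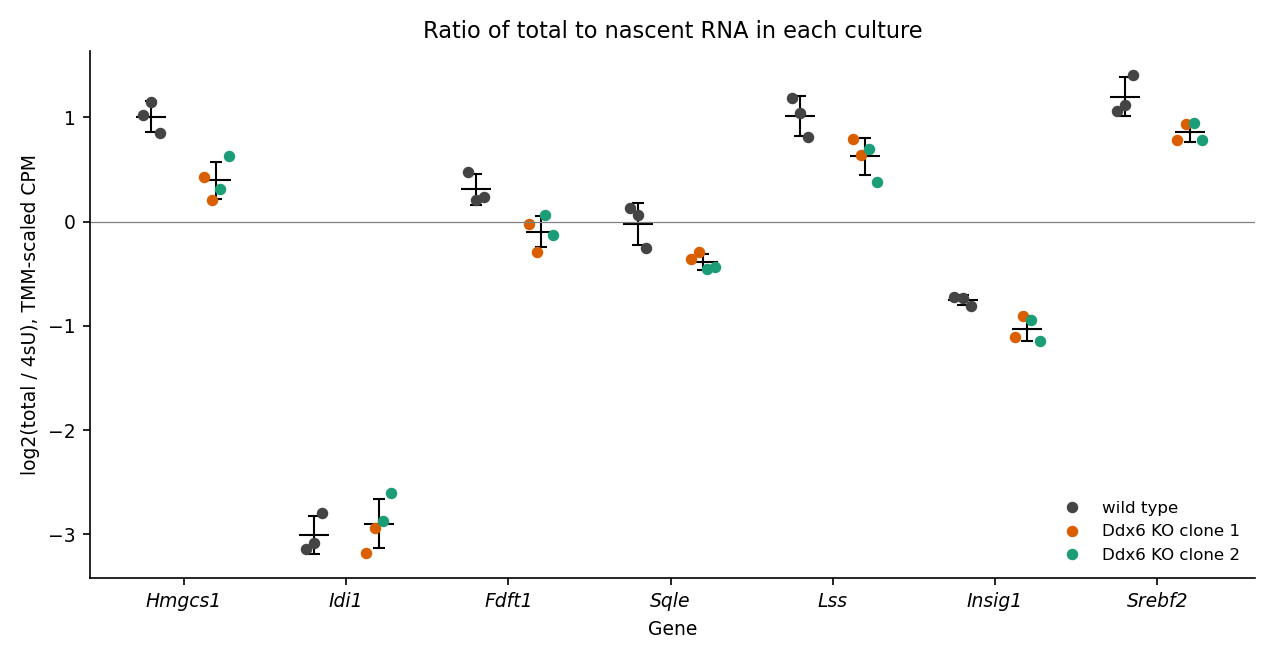
Log2 ratio of total to 4sU, from TMM-scaled CPM with 0.5 CPM added, for each culture; bars are mean ± SD. In 6 of 7 genes the 4 KO cultures lie below the 3 wild-type cultures. *Idi1*, near -3.00 in wild type and limited by its low total RNA counts, is far below the other genes in both genotypes.

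The KO clones were compared directly, since each is 1 line and their *Ddx6* mRNA differed. No member differed between clones at adjusted p below 0.05 by edgeR in nascent RNA, mRNA or stability. Of all genes, 0.172%, 0.296% and 0.00689% did, in that order. At an unadjusted p under 0.05 there was 1 member in mRNA, *Sqle*, and 0 in nascent RNA and stability. *Sqle* mRNA was lower in clone 2 by 0.23 on the log2 scale (clone 2 minus clone 1 -0.23, SE 0.09, adjusted p = 0.605). Against wild type, *Sqle* mRNA changed by -1.01 in clone 1 and -1.24 in clone 2. *Idi1* mRNA changed by -1.13 (SE 0.37, adjusted p = 0.00975) in clone 1 and -0.64 (SE 0.34, adjusted p = 0.123) in clone 2, but the difference between clones of 0.49 had an SE of 0.43. For the other 5 genes the clones lay within 0.11 of each other in mRNA.

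The remaining enzymes of the pathway were taken as a list of 16 genes. In mRNA, 13 of the 16 fell and 2 rose, beside 31.0% and 19.5% of all tested genes, with a median of -0.71. The largest falls were those of *Dhcr7*, *Fdps* and *Pmvk*. *Dhcr7*, the reductase of the final step, was at 50.6 ± 6.79 CPM in wild type and 23.4 ± 3.65 CPM in KO (log2 fold change -1.12, adjusted p = 1.1e-13). *Fdps*, which makes farnesyl diphosphate, was low, at 10.6 ± 2.05 CPM in wild type and 4.86 ± 1.01 CPM in KO (-1.11, SE 0.20, adjusted p = 6.0e-06). *Pmvk*, the phosphomevalonate kinase, fell by 0.96 on the log2 scale (adjusted p = 6.0e-13). The exceptions, named after their values were seen, were 2 late enzymes that rose, *Ebp*, the sterol isomerase (0.58, adjusted p = 9.3e-07), and *Hsd17b7*, a keto reductase (0.39, adjusted p = 0.00378), and *Sc5d*, the desaturase, at -0.11 (adjusted p = 0.309). With the 7 members, 20 of the 23 pathway and control genes fell in mRNA and 2 rose.

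In nascent RNA, 6 of these 16 fell and 3 rose, beside 21.0% and 20.6% of all tested genes, with a median of -0.33, and 3 fell when scaled by library size alone. In stability 6 fell and 0 rose, beside 8.58% and 3.79%, with a median of -0.35. *Dhcr7* fell in nascent RNA by 1.03, nearly as much as in mRNA, and its stability differed by -0.09 (adjusted p = 0.820).

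The genes that control SREBP2 processing moved in both directions. Of 9, 2 rose and 2 fell in mRNA, beside 19.5% and 31.0% of all tested genes, with a median of 0.00, and stability changed in none at adjusted p below 0.05. *Scap*, which carries SREBP2 to the Golgi, rose from 55.0 ± 1.20 to 72.7 ± 3.69 CPM (log2 fold change 0.40, adjusted p = 1.7e-05). *Srebf1*, the paralogue of *Srebf2* that favours fatty acid genes, fell (-0.34, adjusted p = 3.5e-05), as did *Mbtps1*, the site-1 protease (-0.36, adjusted p = 2.0e-07). *Insig2* was at 0.17 (adjusted p = 0.263) and *Mbtps2*, the site-2 protease, at -0.10 (adjusted p = 0.428).

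Genes of cholesterol uptake and transport numbered 9, of which 2 rose and 3 fell in mRNA with a median of -0.09, close to the 19.5%, 31.0% and -0.10 of all tested genes. *Lipa*, the lysosomal acid lipase, rose from 3.30 ± 0.873 to 5.84 ± 0.229 CPM (0.80, adjusted p = 0.00780), and *Lrp1*, a lipoprotein receptor, fell from 183 ± 1.87 to 121 ± 8.35 CPM (-0.59, adjusted p = 8.1e-11). Of 7 genes of efflux and storage 6 were tested, of which 2 rose and 0 fell in mRNA, beside the same 19.5% and 31.0%. They were *Abca1*, the exporter that loads cholesterol onto lipoproteins (1.14, adjusted p = 4.3e-13), and *Soat1*, which esterifies cholesterol for storage (0.67, adjusted p = 5.3e-07).

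Fatty acid synthesis is the neighbouring pathway, whose genes are targets of SREBP1. Of its 11 listed genes 9 fell and 1 rose in mRNA, beside 31.0% and 19.5% of all tested genes, with a median of -0.52. *Scd1*, the stearoyl-CoA desaturase, went from 392 ± 13.3 to 175 ± 2.90 CPM (-1.16, adjusted p = 7.1e-25). *Acsl3*, an acyl-CoA synthetase, fell by 0.82 (adjusted p = 6.3e-16) and *Scd2* by 0.76 (adjusted p = 1.6e-18) on the log2 scale. *Me1*, which supplies NADPH and is named after its value was seen, rose (0.22, adjusted p = 0.0345).

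**Figure D4:**
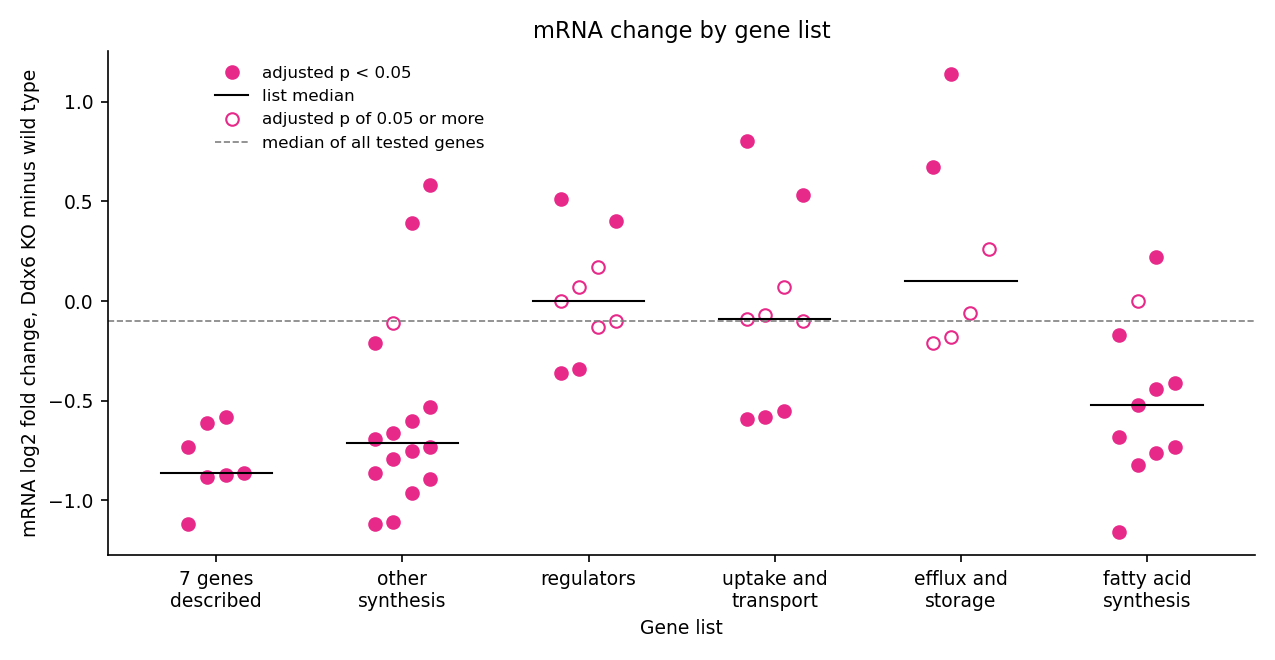
mRNA log2 fold change of *Ddx6* KO minus wild type for the tested genes of each list; filled points have adjusted p below 0.05, black lines are list medians and the dashed line is the median of all tested genes, -0.10. The 7 genes described, the other synthesis genes and the fatty acid genes have medians of -0.86, -0.71 and -0.52, and the other lists lie between -0.09 and 0.10.

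The 7 genes varied together across libraries. With log2 CPM centred within each assay, Pearson's r over the 14 libraries lay between 0.669 (*Idi1* with *Lss*) and 0.974 (*Sqle* with *Insig1*) over all pairs. The libraries share the difference between genotypes and come in pairs from 7 cultures, so these are descriptions. Among 10012 genes outside the lists with at least 10 CPM on average, the 5 most like the mean profile of the 7 were *Inpp5d* (r = 0.988), *Rabgap1l* (0.987), *Rims3* (0.984), *Alyref* (0.984) and *Tln2* (0.983). Their mRNA log2 fold changes lay between -1.28 for *Rims3* and -0.69 for *Inpp5d*.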

How the data were processed

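Nascent (4sU) and total RNA were measured in 7 cultures of mouse ESCs, giving 14 libraries. Per the paper's methods, the authors used cutadapt 1.14 for trimming, STAR 2.5.3a for alignment to mm10 with unique alignments kept, and featureCounts 1.5.3 for strand-aware counting on Gencode M14, from which rRNA genes had been removed. The values they deposited are raw, unscaled counts for each gene. Both sequencing runs of a 4sU library were summed. The 92 spike-in rows hold 0 counts and were left out.

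Genes with at least 3 CPM in 3 libraries (14518) were tested with edgeR 4.0.16 in R 4.3.3 (TMM, robust quasi-likelihood; genotype, assay and their interaction), with Benjamini-Hochberg adjustment over all of them. "Rose" and "fell" mean adjusted p below 0.05; "called" also needs an absolute log2 fold change above 1. RPKM are TMM-scaled CPM per kilobase of the deposited exon length. The lower depth of the 4sU libraries gives less precision there, and *Idi1* is limited by its counts.

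Both libraries of a culture come from 1 split RNA extract; their deviations from group means correlated by 0.00427 to 0.124. Replicates differed by more than counting noise (chi-square per degree of freedom 1.54 to 3.90). The members and lists were chosen with earlier results of these data known. Named genes are the 7 members, *Ddx6*, 5 processing regulators, up to 3 genes per list with the largest mRNA change that passed, the 5 genes most like the members and single cell type markers; other names were chosen after their values were seen, as marked; values of some list genes are counted but not reported here. Alternatives were DESeq2 1.42.0, limma-voom (limma 3.58.1), other scalings, no filter, each run, each clone, each culture left out, replicate blocks and pseudocounts of 0.1 and 2 in place of 0.5 CPM.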

Additional observations from a re-analysis of the deposited data

How the results depend on the processing

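Of 364 values of single members under alternatives, 317 kept their side of the threshold and 308 of these their direction, 45 were no longer past it, 2 (*Lss* stability) came to pass it and 0 called values changed sign. The other 9 were uncalled values whose sign turned: 8 of *Idi1* stability, which ranged from -0.24 to 0.28, and *Lss* in nascent RNA with library size only (0.01). The count of members that fell in stability, 5 as reported, was 2 with DESeq2, 1 with TMM within each assay, 2 without the low-count filter, 3 with the single-end run alone, 3 with the re-sequencing run alone, 2 with clone 1 alone and 2 with clone 2 alone. Without the filter more genes are tested, and with 1 clone or run fewer samples or reads enter; the cause of the other shifts was not tested. Leaving out 1 culture gave 2 to 5 members in stability, 5 to 6 in nascent RNA and 6 to 7 in mRNA. Scaling by library size alone left 3 members in nascent RNA and 3 other synthesis genes. Demanding a log2 fold change below -1 left 0 members in nascent RNA, 1 in mRNA and 0 in stability. With the replicate number as a block, 6, 7 and 5 members fell in nascent RNA, mRNA and stability, and with the culture as a block 5 fell in stability, so neither block changed these counts. Replicate numbers are only names between genotypes, with deviations that correlated by -0.0383 to 0.0889. A pseudocount of 2 CPM moved the wild-type ratio of *Idi1* to -2.59.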

Other observations

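*Srebf2* hosts a microRNA gene, which adds a gene of cholesterol efflux to the picture. In the RefSeq table on GRCm38.p6, the *Mir33* hairpin lies on the plus strand at chr15:82198122-82198190, which is in intron 16 of 18 of the principal *Srebf2* transcript. The mature miR-33-5p, with its seed in capitals, is shown for the sites that match it.
mmu-miR-33-5p: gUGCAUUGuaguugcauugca

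The 3′ UTR of *Abca1*, a known target of this microRNA, holds 3 copies of the seed match CAATGCA, which 6.82% of 3′ UTRs hold, and 2 of the 3 extend to CAATGCAA, which 1.90% hold. The match positions in the annotated 3′ UTR are 135, 140 and 150, so they lie close together and the second overlaps the first. This 3′ UTR also holds 2 copies of GCACTT, the seed match of the ESC-enriched microRNAs, at positions 144 and 2931. Of all 3′ UTRs searched, 31.5% hold that match. *Abca1* rose in nascent RNA, from 19.8 ± 1.96 to 44.4 ± 5.50 CPM (log2 fold change 1.16, SE 0.14, adjusted p = 2.7e-10), and in mRNA, from 17.1 ± 1.68 to 37.5 ± 0.928 CPM (1.14, SE 0.11, adjusted p = 4.3e-13), by edgeR's quasi-likelihood test. Its stability differed by -0.03 (SE 0.18, adjusted p = 0.958). Mature microRNAs were not measured in these libraries, and no relation between *Srebf2* and *Abca1* was tested.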
